A study of Mus musculus with 24 samples.

Results

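The comparison described here asks what changes in ribosome footprints when Trp53 is missing from forelimb buds that have already lost 1 allele of Rps6. It uses 6 of the 24 libraries of the series, chosen by their labels alone: 3 ribosome-protected fragment (RPF) libraries of genotype Prx1Cre;Rps6lox/+;Trp53-/- and 3 of genotype Prx1Cre;Rps6lox/+;Trp53+/+. They are called Rps6 het, Trp53 null and Rps6 het, Trp53 WT below, the latter being the reference of every fold change. Both groups carry the Prx1Cre transgene and the floxed Rps6 allele, so they do not differ in these alleles. Whether the extent of the Rps6 deletion differed between them was not tested. The 6 RPF libraries without Cre (Rps6lox/+;Trp53+/+ and Rps6lox/+;Trp53-/-, here Rps6 WT, Trp53 WT and Rps6 WT, Trp53 null) served to show where the Rps6 het limbs differ. Between Rps6 het and Rps6 WT limbs, Cre and the Rps6 deletion go together, so their effects cannot be told apart. All embryos were taken at stage E10.5, and each library was made from material of 2 embryos of the same genotype. The Trp53 allele is given as -/- for the embryo, whereas Prx1Cre acts in limb bud mesenchyme, so the lysed forelimbs also held cells in which Rps6 was not deleted.

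The Rps6 protein belongs to the small subunit of the ribosome, and its loss impairs the assembly of new subunits. Impaired assembly leaves ribosomal proteins and 5S RNA free to bind Mdm2, the ubiquitin ligase that otherwise marks p53 for degradation, and p53 then accumulates. p53, the product of Trp53, is a transcription factor that induces genes of cell cycle arrest, apoptosis and metabolic control, and p53 activation underlies much of the tissue damage in ribosomopathies. Ribosome profiling digests RNA outside ribosomes with RNase and sequences the fragments that the ribosomes protect, so that a footprint count follows both how much of an mRNA is present and how densely it is read.

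The deposited table names transcripts by versioned Ensembl ID only, and 0 of its 21960 IDs matched the reference tables of gene names. Transcripts are therefore given by ID, without gene symbol, position or sequence. The targeted genes Rps6 and Trp53, the marker genes of limb mesenchyme and of other cell types, and the 22 gene lists drawn up for this tissue could not be looked up. Whether the proportions of cell types differed between the groups was not tested. In whole limb tissue, fewer cells of a type and less RNA per cell cannot be told apart.

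The 6 Rps6 het libraries held 7026056 to 13143323 footprint counts, the shallowest being replicate 2 of Rps6 het, Trp53 WT. At these depths 3 counts correspond to 0.228 to 0.427 CPM (counts scaled to the library total), a limit that covers counting error only. Replicates of a group resembled each other closely, with Spearman's correlation across transcripts of 0.995 to 0.997, yet differed by more than sampling noise (chi-square of 1.92 to 2.90 per degree of freedom). On the first principal component of the 6 libraries, with 43.3% of the variance, the 3 Trp53 WT libraries scored 11.5 to 20.2 and the 3 Trp53 null libraries -17.5 to -14.6. The second component, with 20.6%, put replicate 1 of Trp53 WT (16.8) and replicate 2 of Trp53 null (11.9) at the opposite end from replicate 2 of Trp53 WT (-15.4), a division that crosses the genotypes.

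Loss of Trp53 altered footprints of many transcripts in Rps6 het limbs, mostly by a small amount. Of 12147 transcripts tested, 1831 (15.1%) passed an adjusted p-value of 0.05 in edgeR's quasi-likelihood test and are termed called. Of these, 843 (6.94%) were higher and 988 (8.13%) lower in Trp53 null. The median log2 fold change was 0.31 for transcripts called higher and -0.25 for those called lower, against 0.00 over all transcripts tested. Changes under 0.5 on the log2 scale made up 79.6% of the calls. The 3 libraries of one group did not overlap with the 3 of the other for 1758 of the 1831 called transcripts, and for 30.8% of all transcripts tested.

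**Figure D1:**
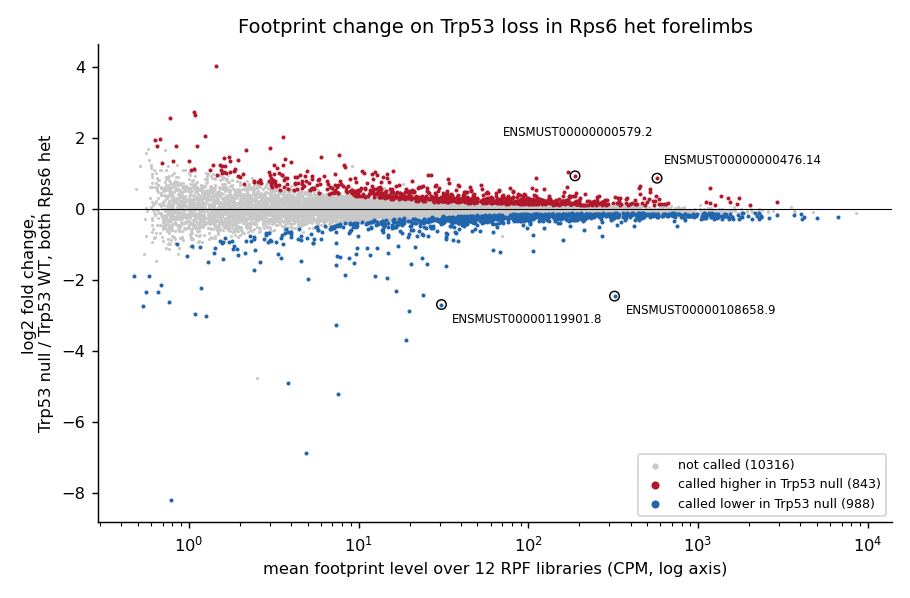
Log2 fold change of footprints, Trp53 null against Trp53 WT in Rps6 het limbs, against the mean footprint level in CPM (log axis). Each point is 1 of 12147 transcripts; red points (843) were called higher and blue points (988) lower in Trp53 null, and circles mark the 4 transcripts named in the text. The falls reach further from 0 than the rises among transcripts above about 5 CPM.

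Large changes were few, and they were not alike in both directions. A change of more than 1 on the log2 scale was called for 51 transcripts that were higher and 63 that were lower in Trp53 null. Beyond 2 on that scale there were 6 higher and 19 lower. The 6 large rises concerned sparse transcripts, with a median of 0.251 CPM with Trp53 and 1.65 CPM without it. The 19 large falls started from a median of 13.8 CPM in Trp53 WT and ended at 0.458 CPM in Trp53 null, close to the level that 3 counts give.

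The number of calls and the size of a called change varied with footprint level. In the lowest quartile of transcripts by mean level (0.475 to 6.57 CPM), 6.09% were called, with a median standard error (SE) of 0.25 over that quartile and a median absolute log2 change of 0.93 among its calls. In the highest quartile (67.9 to 8558 CPM), 27.6% were called, with a median SE of 0.05 and a median absolute change of 0.19. Among abundant transcripts the calls leaned towards lower footprints in Trp53 null, with 528 lower and 309 higher in the highest quartile. In the lowest quartile 78 were lower and 107 higher.

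Transcripts called lower in Trp53 null took up a sizeable share of all ribosome footprints. Together the 988 made up 27.8%, 27.9% and 26.9% of the footprints of tested transcripts in the 3 Rps6 het, Trp53 WT libraries, and 24.4%, 24.8% and 24.6% in the 3 Rps6 het, Trp53 null libraries. The 843 called higher made up 7.11%, 7.05% and 7.34% in Trp53 WT and 8.92%, 8.68% and 8.97% in Trp53 null. These shares do not overlap between the groups, as the choice of transcripts by this same contrast entails.

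Full values are given for 4 transcripts, 2 that fell and 2 that rose, by the smallest p-value. Only called transcripts with all 3 libraries of one group above all 3 of the other were eligible. That the groups lie apart in these 4 therefore follows from the choice and is not a separate result. The strongest evidence of all belonged to ENSMUST00000108658.9, which fell. Its footprint level was 585, 577 and 576 CPM in the Rps6 het, Trp53 WT libraries and 110, 104 and 105 CPM in the Trp53 null libraries. The groups lay far apart and the replicates close together. The log2 fold change was -2.45 ± 0.04 (SE, edgeR adjusted p = 2.94e-25), a 5.46-fold lower level. The same transcript fell in limbs with intact Rps6 as well, from 491 ± 13.7 CPM (SD, n = 3) with Trp53 to 111 ± 2.4 CPM without it, a log2 change of -2.14 ± 0.04 (SE) at an edgeR adjusted p of 5.31e-24. The fall was slightly larger in Rps6 het, by -0.31 ± 0.06 (SE) on the log2 scale (edgeR adjusted p for the difference = 0.000857). Whether this ID belongs to Trp53, whose own transcript the null allele may lower, could not be looked up.

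ENSMUST00000119901.8 fell too, but from a level seen in Rps6 het, Trp53 WT and in no other genotype. Its level was 83.7, 89.3 and 86.3 CPM in the Rps6 het, Trp53 WT libraries and 12.1, 13.3 and 15.0 CPM in the Rps6 het, Trp53 null libraries, from 610 to 1113 and 132 to 161 footprints per library. All 3 Trp53 null libraries were far below all 3 Trp53 WT libraries (log2 fold change -2.68 ± 0.07 SE, edgeR adjusted p = 4.57e-20, 6.43-fold lower). In limbs with intact Rps6 the level was 11.5 ± 0.635 CPM (SD, n = 3) with Trp53 and 11.6 ± 0.374 CPM without it, where no change was called. The difference between the Trp53 changes was -2.70 ± 0.12 (SE, edgeR adjusted p = 4.07e-14).

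ENSMUST00000000476.14 was the transcript with the smallest p-value among those that rose. It stood at 332, 340 and 351 CPM in the Rps6 het, Trp53 WT libraries and at 636, 589 and 652 CPM in the Rps6 het, Trp53 null libraries. The lowest Trp53 null library was well above the highest Trp53 WT library (log2 fold change 0.87 ± 0.04 SE, edgeR adjusted p = 1.37e-14, 1.83-fold higher). With Rps6 intact it had 667 ± 30.4 CPM (SD, n = 3) with Trp53 and 659 ± 6.33 CPM without it. The mean of Rps6 het, Trp53 null was thus 0.938 times that of Rps6 WT, Trp53 WT, and the mean of Rps6 het, Trp53 WT was 0.511 times it.

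ENSMUST00000000579.2 rose in the same manner. Its level was 101, 95.6 and 112 CPM in the Rps6 het, Trp53 WT libraries. It was 213, 184 and 200 CPM in the Rps6 het, Trp53 null libraries. The groups were again apart, as the choice required (log2 fold change 0.94 ± 0.06 SE, edgeR adjusted p = 3.25e-12, 1.92-fold higher). In the Rps6 WT limbs this transcript had 229 ± 5.11 CPM (SD, n = 3) with Trp53 and 224 ± 14.02 CPM without. For ENSMUST00000000476.14 and ENSMUST00000000579.2 the Trp53 change was more positive in Rps6 het than in Rps6 WT, by 0.89 ± 0.06 and 0.97 ± 0.08 (SE) on the log2 scale (edgeR adjusted p = 6.04e-11 and 2.43e-09). For 3 of these 4 transcripts, Rps6 het, Trp53 WT thus lay apart from the other 3 genotypes, while ENSMUST00000108658.9 followed Trp53 in both Rps6 genotypes. In these 3, the Rps6 het, Trp53 null mean came near the Rps6 WT levels but lay outside the range of the Rps6 WT libraries. It was 0.868 times the mean of Rps6 WT, Trp53 WT for ENSMUST00000000579.2 and 1.17 times it for ENSMUST00000119901.8.

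**Figure D2:**
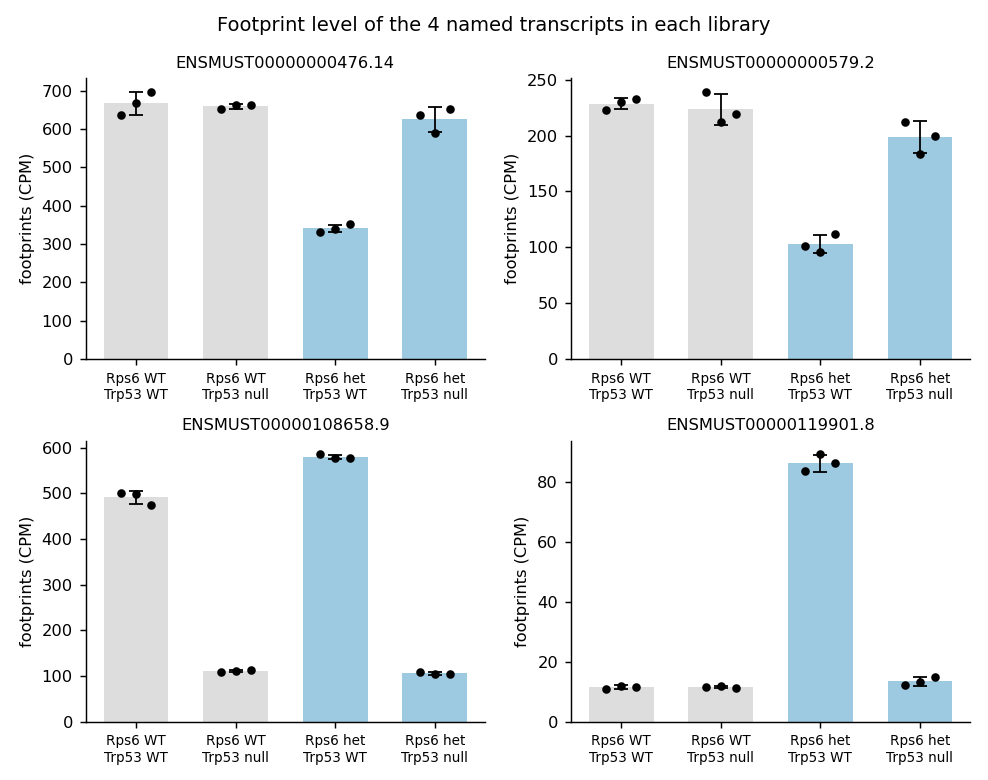
Footprint level in CPM of the 4 named transcripts in the 4 genotypes. Points are libraries, bars the mean of 3 and error bars the SD; grey bars are Rps6 WT and blue bars Rps6 het. In 3 panels Rps6 het, Trp53 WT stands apart from the other genotypes, and ENSMUST00000108658.9 is low in both Trp53 null genotypes.

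A single called transcript had no footprint at all in the 3 Rps6 het, Trp53 null libraries. It was picked out after its counts had been seen, and its ID is not printed. It had 30, 18 and 46 footprints in the Rps6 het, Trp53 WT libraries and 0 in each of the other 9 RPF libraries. With 3 counts per library as the floor, footprints were at least 10.99-fold lower in Rps6 het, Trp53 null than in Rps6 het, Trp53 WT (edgeR adjusted p = 6.9e-08). The difference between its Trp53 changes in Rps6 het and Rps6 WT, where both groups had 0 counts, did not pass (edgeR adjusted p = 0.99996). Its RNA behaved likewise, with 111, 96 and 112 counts in the Rps6 het, Trp53 WT libraries and 0 to 2 counts in every other RNA library. Among called transcripts, 0 had no footprint in the 3 Trp53 WT libraries.

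The pattern of Rps6 het, Trp53 WT lying apart from the other genotypes was common among the called transcripts. Rps6 het, Trp53 WT had the highest mean of the 4 genotypes for 972 of the 988 transcripts called lower in Trp53 null, and the lowest mean for 832 of the 843 called higher. The direction of the call fixes part of this order. Among all 6013 tested transcripts with a negative change, called or not, Rps6 het, Trp53 WT was highest for 71.8%, and among the 6134 with a positive change it was lowest for 73.4%. The contrast that chose the transcripts does not contain the Rps6 WT libraries, although these shared the filter, scaling and estimate of spread. They give a scale for the levels. Relative to the mean of Rps6 WT, Trp53 WT, the 988 transcripts had a median log2 level of 0.30, 0.31 and 0.26 in the 3 Rps6 het, Trp53 WT libraries and of 0.03, 0.03 and 0.01 in the 3 Rps6 het, Trp53 null libraries. For the 843 transcripts the corresponding medians were -0.31, -0.34 and -0.28, against 0.00, -0.03 and 0.01.

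**Figure D3:**
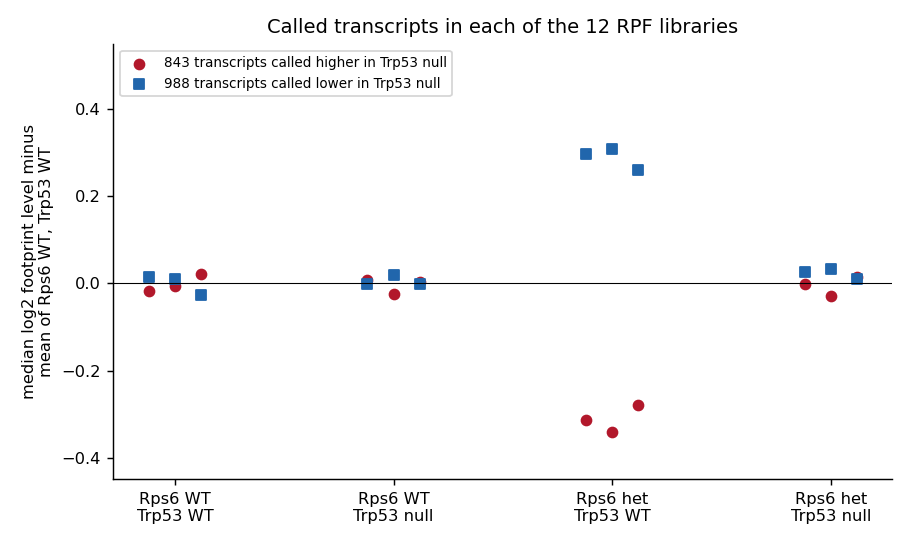
Median log2 footprint level of the transcripts called higher (red circles, 843) and lower (blue squares, 988) in Trp53 null within Rps6 het, as the difference from the mean of Rps6 WT, Trp53 WT. Each mark is a library, 3 per genotype. The 3 Rps6 het, Trp53 WT libraries lie between 0.26 and 0.31 and between -0.34 and -0.28, and the libraries of the other genotypes lie within 0.04 of 0.

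Counted transcript by transcript, footprints in Rps6 het, Trp53 null lay within the Rps6 WT range for a majority of the called transcripts. In both directions that share was smaller than over all transcripts tested. Calls were more frequent among abundant transcripts, and the comparison was not matched for footprint level. Whether level accounts for the smaller share was not tested. The mean of Rps6 het, Trp53 null lay within the range of the 6 Rps6 WT libraries for 570 of the 988 transcripts called lower (57.7%) and 563 of the 843 called higher (66.8%). The same was true of 73.8% of all transcripts tested. The mean of Rps6 het, Trp53 WT lay within that range for 62 and 70 of the called transcripts, and for 49.6% of all tested. Among changes of more than 1 on the log2 scale, 44 of the 63 transcripts called lower and 42 of the 51 called higher had a Rps6 het, Trp53 null mean inside the range.

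In limbs with intact Rps6, where other libraries were compared, loss of Trp53 was called for 9 of the 12147 transcripts (0.0741%), of which 6 rose and 3 fell. Unadjusted p-values under 0.05 numbered 494, against 3413 in Rps6 het. The 9 calls became 4 without replicate 3 of Rps6 WT, Trp53 null, and 48 without a filter on low counts. The spread of the replicates was not larger there. The median SD of log2 levels was 0.086 and 0.082 in Rps6 WT, with and without Trp53. It was 0.096 and 0.093 in Rps6 het. Transcripts called in Rps6 het moved little in Rps6 WT, with a median log2 change of -0.01 for the 843 called higher and 0.00 for the 988 called lower. They had the same sign in both Rps6 genotypes in 45.4% of cases, against 47.9% over all transcripts tested. Across all 12147 transcripts, which are not independent replicates, the Trp53 changes in the 2 Rps6 genotypes correlated with Pearson's r = 0.028 and Spearman's rho = -0.027.

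Called in both Rps6 genotypes were 6 transcripts, 0.328% of the Rps6 het calls and 66.7% of the Rps6 WT calls, and all 6 changed in the same direction. The 3 that rose had log2 fold changes of 0.43 to 0.74 in Rps6 het and 0.36 to 1.56 in Rps6 WT. The 3 that fell, ENSMUST00000108658.9 among them, had changes of -2.45 to -0.39 in Rps6 het and -2.14 to -0.25 in Rps6 WT. For 1 of the risers and 1 of the fallers the change also differed between the Rps6 genotypes.

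Whether a Trp53 change differed between Rps6 het and Rps6 WT limbs was tested as a difference of changes, a contrast that contains the same Rps6 het libraries. It was called for 857 transcripts (7.06%), the change being more positive in Rps6 het for 378 and more negative for 479. Of the 1831 transcripts called in Rps6 het, 801 had a called difference, 357 of those higher and 444 of those lower in Trp53 null. For the other 1030 a difference between the Rps6 genotypes was not shown, and 626 of these had the same sign in both. The same sign was seen for 831 of all 1831 calls and 47.9% of all transcripts tested. The Rps6 het changes of the 1030 were smaller, with a median absolute log2 change of 0.23 against 0.32. Lack of a called difference itself favours the same sign and a smaller change. Among the 114 called changes of more than 1 on the log2 scale, 72 had a called difference. The number of called differences rested partly on single libraries. It was 513 without replicate 3 of Rps6 het, Trp53 null, 523 without replicate 3 of Rps6 WT, Trp53 WT, 548 without replicate 2 of Rps6 WT, Trp53 null and 557 without replicate 2 of Rps6 het, Trp53 WT. The 801 became 494 without replicate 3 of Rps6 het, Trp53 null, and 532 and 527 without replicates 1 and 2 of Rps6 het, Trp53 WT.

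**Figure D4:**
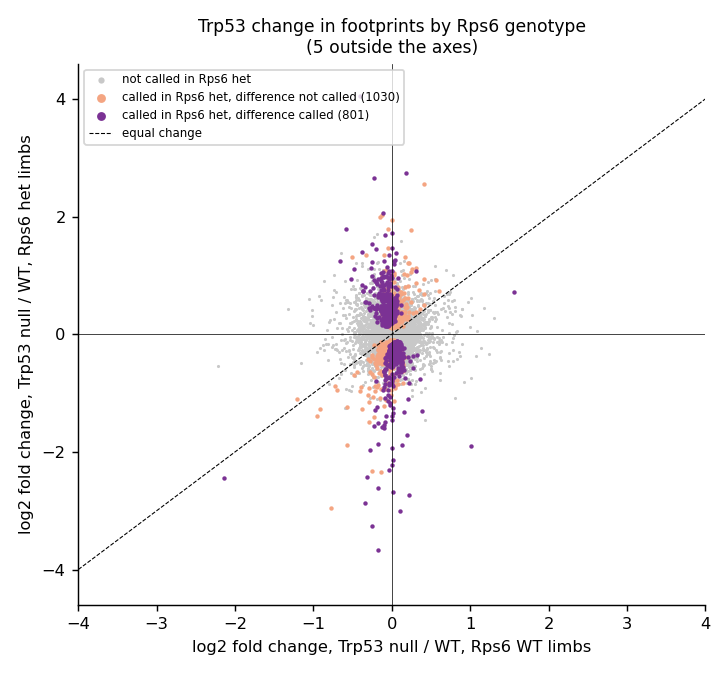
Log2 fold change of footprints on loss of Trp53 in Rps6 het limbs (vertical axis) against that in Rps6 WT limbs (horizontal axis), which come from other libraries. Purple points (801) were called in Rps6 het with a called difference between the Rps6 genotypes, orange points (1030) without; 5 transcripts lie outside the axes. Called transcripts spread along the vertical axis, and ENSMUST00000108658.9, at -2.14 and -2.45, lies near the line of equal change.

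RNA libraries of the same pools give the level of each mRNA beside its footprints. In RNA, loss of Trp53 in Rps6 het limbs gave 1919 calls among 14411 transcripts (13.3%), 895 that rose and 1024 that fell. Of the 1828 footprint calls tested in RNA, 926 were called in RNA, and 924 of these in the same direction, 410 higher and 514 lower. That is 50.7% of the footprint calls and 50.9% of the 1819 RNA calls tested in footprints. Without replicate 1 of Rps6 het, Trp53 WT there were 1151 RNA calls and 533 shared calls of the same direction, and without replicate 3 of Rps6 het, Trp53 null 600 shared calls. RNA changed with the sign of the footprints for 1737 of the 1828 (95.02%), against 72.6% of all 12116 transcripts tested in both. Across these transcripts the RNA and footprint changes correlated with Pearson's r = 0.768 and Spearman's rho = 0.611; the RNA and RPF libraries share their pools.

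All of the 4 named transcripts changed in RNA in the direction of their footprints. ENSMUST00000108658.9 had 150 ± 24.1 CPM (SD, n = 3) with Trp53 and 19.2 ± 2.93 CPM without it in Rps6 het RNA, a log2 fold change of -2.98 ± 0.13 (SE). ENSMUST00000119901.8 went from 17.6 ± 3.49 to 1.84 ± 0.629 CPM (-3.32 ± 0.20 SE). RNA of ENSMUST00000000476.14 went from 316 ± 16.0 to 575 ± 33.7 CPM (0.86 ± 0.06 SE), close to its footprint change of 0.87. RNA of ENSMUST00000000579.2 went from 46.1 ± 8.20 to 84.3 ± 10.49 CPM (0.87 ± 0.11 SE). The edgeR adjusted p-values of these RNA changes were between 1.58e-10 and 0.000104.

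Transcripts called in only 1 kind of library mostly leaned the same way in the other. Of the 902 footprint calls that were not called in RNA, 813 had the same sign in RNA. Of the 443 transcripts called higher in RNA and not in footprints, 412 had higher footprints in Trp53 null, with a median log2 change of 0.18 against 0.29 in RNA. Of the 450 called lower in RNA and not in footprints, 377 had lower footprints, with a median of -0.11 against -0.28. Each of these groups was chosen by the kind of library in which it passed, which favours larger changes there.

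Footprints beyond the change in RNA, the translational efficiency (TE), were called for 23 of 14080 transcripts (0.163%), of which 22 rose and 1 fell in Trp53 null. At an unadjusted p-value under 0.05 there were 876. With each pool as a block, which pairs its RPF and RNA libraries, 77 were called, 72 of them higher. Of the 22, 20 were called lower in RNA and not called in footprints. Leaving out replicate 3 of Rps6 het, Trp53 WT left 14 TE calls without the block. In these 20 the footprint change was -0.11 to 0.19 on the log2 scale and the RNA change -1.34 to -0.28. Their median RNA level was 171 CPM with Trp53 and 119 CPM without it in Rps6 het limbs, beside 117 and 118 CPM in the Rps6 WT genotypes, and their median footprint level was 248 and 249 CPM in the Rps6 het genotypes. All 20 had their highest mean RNA level in Rps6 het, Trp53 WT. Their choice as lower in RNA fixes part of this order, and the share over all transcripts lower in RNA is not given. Of the 1831 footprint calls, 3 had a called TE change. Among the footprint calls of each other fit the number was 7 with a stricter filter, 11 with the replicate block, 14 by DESeq2 and 26 without a filter. With 1 Rps6 het replicate left out it was 1 without replicate 3 of Trp53 WT, 5 without its replicate 1, and 5 and 6 without replicates 1 and 2 of Trp53 null. In the fit with 23 TE calls, TE was called for none of the 4 named transcripts (edgeR adjusted p of at least 0.159). For ENSMUST00000108658.9 it was called with the pool as a block, at 0.53 on the log2 scale (edgeR adjusted p = 0.0149), without a low-count filter (0.000366) and without replicate 2 of Rps6 het, Trp53 WT (0.0135).

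**Figure D5:**
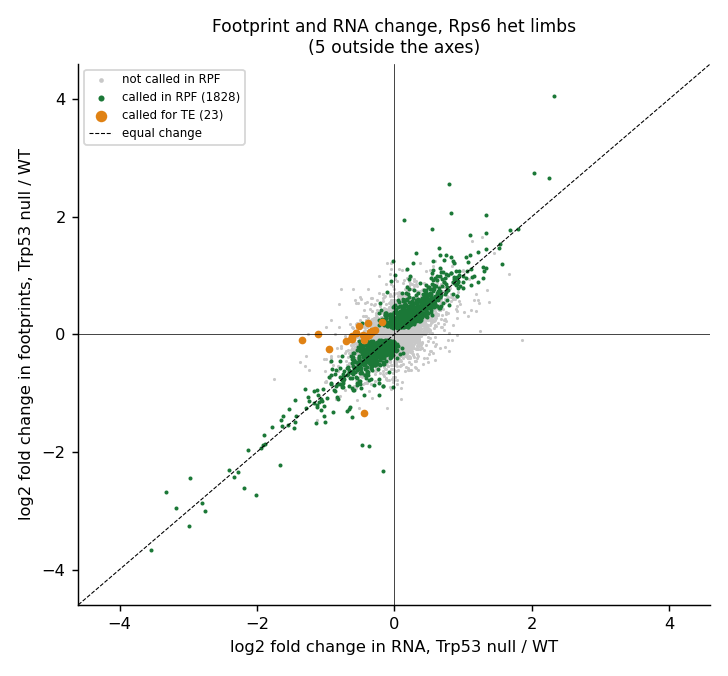
Log2 fold change of footprints (vertical axis) against that of RNA (horizontal axis) on loss of Trp53 in Rps6 het limbs, for transcripts tested in both. Green points (1828) were called in footprints and orange points (23) for TE; 5 transcripts lie outside the axes. Green points follow the line of equal change, and most orange points lie at a footprint change near 0 and an RNA change below 0.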

How the data were processed

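Ribosome footprints and rRNA-depleted RNA of forelimb lysates were sequenced in 24 libraries, 3 for each of 4 genotypes and library kind. The authors deposited raw counts per transcript, in whole numbers, over coding sequences for footprints and whole transcripts for RNA by the table's own name. Bowtie2, UMI-tools and GRCm38 (mm10) are named in the submitters' processing notes; the annotation, the counting tool, read filters and whether counts are of unique molecules are not given in the sources used here, so transcripts that share reads are uncertain. Groups came from the labels, and table columns were matched to samples by genotype and replicate number.

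Counts were tested with edgeR 4.0.16 (R 4.3.3): filterByExpr with its minimum count of 10 and total of 15, TMM scaling, and the quasi-likelihood F test, with the 4 genotypes of a library kind in 1 model. TE was fitted over all 24 libraries. P-values were Benjamini-Hochberg adjusted over the transcripts tested, SE came from the F statistic, and CPM used TMM-scaled totals of tested transcripts. Log2 levels used a prior count of 2. P-values rest on the spread between pools within a genotype and library kind. The TE fit without the pool block treated RPF and RNA libraries of 1 pool as independent. The script was tested on simulated counts. Alternatives used DESeq2 1.42.0 and limma 3.58.1, other filters and scalings, replicate blocks and left-out libraries.

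RPF and RNA deviations of 1 pool from their group means correlated across transcripts with r = 0.144 to 0.384 in the 6 Rps6 het pools, which the protocol in the labels describes as parts of the same lysates. The comparison and the gene lists were chosen with earlier results of these data known. The rule for named transcripts took, for want of gene names, the 2 in each direction with the smallest p-value among called transcripts whose replicates did not overlap. Of the 22 gene lists and cell type marker lists, 0 symbols could be matched to a row, and no list was tested. The table held 5426 rows without a footprint in any RPF library.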

Additional observations from a re-analysis of the deposited data

Results flagged for a closer look

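The change of footprints on loss of Trp53 differed between Rps6 het and Rps6 WT limbs for 857 transcripts by edgeR's quasi-likelihood test of the difference. All 4 named transcripts were among them. These were chosen by the Rps6 het contrast, whose libraries the difference also contains. Of all 1831 transcripts called in that contrast, 801 had a called difference. The log2 change in Rps6 het less that in Rps6 WT was -2.70 for ENSMUST00000119901.8 (edgeR adjusted p = 4.07e-14), 0.97 for ENSMUST00000000579.2 (2.43e-09), 0.89 for ENSMUST00000000476.14 (6.04e-11) and -0.31 for ENSMUST00000108658.9 (0.000857).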

How the results depend on the processing

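The 1831 footprint calls in Rps6 het became 1387 to 1995 under the other scaling, filters, tests, sample choice and block, and 1258 to 1722 with 1 Rps6 het library left out. Without replicate 1 of Trp53 WT and replicate 2 of Trp53 null, a choice made after their position had been seen, 1341 were called. The 4 named footprint changes held their direction and call in all 56 refits. The 4 were chosen by the smallest p-values of this contrast and the refits reuse its libraries, which favours this outcome. Same-numbered Rps6 het libraries did not deviate together in footprints (r = -0.135, -0.124 and 0.027). With 3 libraries per group this cannot decide whether the numbers pair samples. With the replicate block 1995 transcripts were called. The block gave 1003 called differences between Rps6 genotypes, 9 calls in Rps6 WT, 2342 in RNA and 40 for TE. Leaving out 1 of the 12 replicates gave 513 to 925 called differences, and 1 of the 6 Rps6 WT replicates 4 to 11 calls in Rps6 WT. Leaving out 1 of the 6 Rps6 het replicates gave 494 to 857 footprint calls with a called difference, 1151 to 1854 calls in RNA, 533 to 853 footprint calls also called in RNA in the same direction, and 14 to 23 for TE. In RNA the lowest value came without replicate 1 of Rps6 het, Trp53 WT, as did the 533. Without a low-count filter, 48 transcripts were called in Rps6 WT and 56 for TE. DESeq2's Wald test called 54 for TE, and 77 were called with the pool as a replicate block. In fits of the groups compared alone, into which fewer libraries entered, 1224 were called in RNA and 14 for TE. The cause of these changes in number was not tested. Footprint calls with a called TE change numbered 1 to 26 over these settings. Whether depth sets the lower share of calls among sparse transcripts (6.09% in the lowest quartile by level) was not tested.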
